A study of Rattus norvegicus with 12 samples.

Results

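RNA of the left dorsal quadrant of the spinal cord was measured on 4 of the 12 arrays of the series, and these arrays were compared with the 4 arrays of L4 and L5 dorsal root ganglia (DRG) and the 4 arrays of sciatic nerve. The cord arrays were chosen by their sample labels, without use of any measured value. In all rats the left sciatic nerve had been injected with MBP84-104, a fragment of myelin basic protein (50 μg in 5 μL of PBS), so every cord array came from a rat with an injected nerve. Of the cord arrays, 1 of each rat type held the lumbar enlargement, where the axons of the sciatic nerve enter, and 1 held a piece rostral to it that served as its control. The rats were athymic nude rats (Hsd:RH-Foxn1rnu, rnu-/-), which lack mature T cells, taken 7 days after the injection, and Sprague-Dawley rats taken 12 days after it. All were females of 8 weeks. The strain and day of the Sprague-Dawley rats are those of the sample labels. The paper instead describes the wild-type rats profiled beside the nude rats as heterozygous (rnu+/-), with tissue collected 1 week after the injection. Each array held Cy3-labelled RNA pooled from 3 rats. For nerve and DRG, each rat type gave 1 array of the injected left side and 1 array of the right side, whose nerve received PBS. The paper describes its comparisons of injected with contralateral nerve, and of lumbar with thoracic cord, as made within the same animals. Arrays of a tissue and rat type may therefore share rats, while the main fit treated them as independent. The paper lists too few nude rats to give each tissue its own pools of 3, so nude pools of different tissues must share rats. Which pools did so was not stated, and the main fit ignored this too. The arrays of a tissue also differ in rat type, day, and side or level. The p-values below therefore measure the spread between arrays of unlike conditions, and by the labels rat type cannot be told apart from day.

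The dorsal horn receives the axons of sensory neurons whose cell bodies lie in the DRG and whose peripheral branches run in the sciatic nerve. Its own neurons are mostly local interneurons, which release glutamate, or γ-aminobutyric acid (GABA) and glycine, often together with neuropeptides. The cord is myelinated by oligodendrocytes and served by astrocytes, whereas nerve and DRG are myelinated by Schwann cells and wrapped in collagen-rich connective tissue. In whole tissue, fewer cells of a type and less RNA per cell cannot be told apart.

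The 250 bases before the annotated transcription start (RefSeq, GRCr8, written 5′ to 3′ on the strand of the gene) are shown for 4 genes that were higher in cord than in both other tissues, namely Klk6, which had the largest fitted difference (chr1:103415266-103415515, plus strand), the neuropeptide genes Pdyn (chr3:137366504-137366753, minus strand) and Nts (chr7:39460889-39461138, minus strand), and Lbx1, a transcription factor of dorsal horn neurons (chr1:254034827-254035076, minus strand). Capitals mark every match, on either strand, to the TATA box TATAAA, to TGACG, the core of the cAMP response element, or to ACAAAG, a motif bound by SOX factors. No match overlapped another. The same stretch of Gad2, also higher in cord than in both tissues, was searched too, held no match and is not shown.
Klk6: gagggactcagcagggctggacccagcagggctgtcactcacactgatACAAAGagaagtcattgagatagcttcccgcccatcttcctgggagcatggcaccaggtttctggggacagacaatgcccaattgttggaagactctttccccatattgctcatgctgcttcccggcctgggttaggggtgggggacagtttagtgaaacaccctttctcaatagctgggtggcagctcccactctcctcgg
Pdyn: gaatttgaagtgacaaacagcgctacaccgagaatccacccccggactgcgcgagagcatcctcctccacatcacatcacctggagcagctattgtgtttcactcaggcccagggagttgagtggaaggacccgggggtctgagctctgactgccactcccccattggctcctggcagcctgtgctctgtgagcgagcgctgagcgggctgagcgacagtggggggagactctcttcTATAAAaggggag
Nts: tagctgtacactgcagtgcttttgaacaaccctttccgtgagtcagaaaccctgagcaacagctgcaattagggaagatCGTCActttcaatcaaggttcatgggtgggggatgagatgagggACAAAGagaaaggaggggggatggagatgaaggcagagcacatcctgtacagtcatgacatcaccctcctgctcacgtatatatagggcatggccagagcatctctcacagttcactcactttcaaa
Lbx1: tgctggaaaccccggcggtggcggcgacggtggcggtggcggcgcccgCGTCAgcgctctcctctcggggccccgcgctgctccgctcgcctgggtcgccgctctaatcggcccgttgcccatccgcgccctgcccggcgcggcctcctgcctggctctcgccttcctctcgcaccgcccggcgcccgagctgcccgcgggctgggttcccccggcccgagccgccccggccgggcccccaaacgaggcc
Of 27457 rat promoters of this length, 13.1% held the TATA box, 19.0% the response element core and 15.96% the SOX motif. Among the promoters of genes higher in cord than in both other tissues, as defined below, 7.24% of 1244 held the TATA box, 25.2% the response element core and 12.6% the SOX motif. Among those of genes lower than in both, the shares were 12.6%, 18.3% and 12.9% of 882. The 27457 promoters include those of genes that were not tested, and shares among tested genes were not computed. The shares of the called genes thus cannot be set apart from those of tested genes in general. These are counts of letters, not of sites in use.

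Signals below are the deposited normalized log2 values, in which a step of 1 is a 2-fold difference. Each set of 4 cord values is given in the order nude lumbar, nude rostral, Sprague-Dawley lumbar and Sprague-Dawley rostral. A gene was read from the probe with the highest mean over the 12 arrays. It was tested when this probe was well above background, by the flag of the scanner software, on at least 3 of the 4 arrays of a tissue, which left 11056 of 15159 named genes. Of the probes, 63.4% to 69.0% were well above background on the cord arrays and 52.8% to 71.5% on the other 8, the lowest share being that of the injected nude nerve. Pearson's r between pairs of cord arrays over these genes was 0.987 to 0.994, against 0.847 to 0.891 between cord and DRG arrays and 0.719 to 0.789 between cord and nerve arrays. The median SD over 4 arrays was 0.165 in cord, 0.214 in DRG and 0.299 in nerve.

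With limma, at a p below 0.05 after Benjamini-Hochberg adjustment over the 20706 probes tested and at least 2-fold, 1942 genes (17.6%) were higher and 1524 (13.8%) lower in cord than in DRG. Against nerve, 2398 genes (21.7%) were higher and 2106 (19.0%) lower. Against the mean of the 2 tissues, the counts were 2182 (19.7%) and 1759 (15.9%). The comparisons share the 4 cord arrays. Beside a fold given as "at least", the p-value is that of the fitted difference, which uses values below background as measured. A gene was called higher or lower in cord when it passed against DRG and against nerve in the same direction, which 1534 genes (13.9%) did upward and 1172 (10.6%) downward. All 4 cord arrays lay above the other 8 arrays for 2886 genes (26.1%) and below them for 2270 (20.5%), among them 1496 of the genes called higher and 1142 of those called lower. At 4-fold, 615 genes were higher and 431 lower than in both tissues. Of the genes called higher, 224 were well above background on 0 of the other 8 arrays, and so were tested through the cord arrays alone. Of those called lower, 174 were so on 0 of 4 cord arrays. Slide 1 held the 6 nude arrays and the Sprague-Dawley nerve arrays, and slide 2 the Sprague-Dawley cord and DRG arrays. With slide as a block, 1448 genes were higher and 1135 lower than in both tissues, and within the nude arrays of slide 1, 1293 and 981. With normexp background correction from the scanner signal the counts were 759 and 557. The median difference of all genes tested was 0.07 to DRG and 0.01 to nerve. By the scanner flag alone, 188 named genes were well above background on all 4 cord arrays and on 0 of the other 8, and 34 genes on 0 cord arrays and all of the other 8.

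The cord label was checked with Slc6a5, the transporter that loads glycine into inhibitory neurons, and its 2 probes disagreed. On the first probe, Slc6a5 read 9.52, 9.22, 9.59 and 9.17 in cord, 1.69 to 4.00 in DRG and 1.53 to 4.05 in nerve. This probe was well above background on all 4 cord arrays, on 1 DRG array and on 0 nerve arrays, and cord was at least 43.5-fold above DRG (adjusted p = 1.30e-06) and at least 44.6-fold above nerve (adjusted p = 4.56e-07). On the second probe, Slc6a5 read 5.66, 5.04, 5.39 and 4.95 in cord, 4.71 to 5.56 in DRG and 3.70 to 4.28 in nerve, so the cord and DRG arrays overlapped. It was well above background on 3 DRG and 2 nerve arrays. The difference on it was 0.24 to DRG (adjusted p = 0.344) and 1.34 to nerve (adjusted p = 1.53e-04). The rule for choosing a probe took the second one, by a mean of 4.73 against 4.69, so the counts of genes called leave Slc6a5 out. Among the 1816 genes with several tested probes, 296 had probes with different calls, and 3 had probes called in opposite directions.

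Other genes bore on the label too. Of the markers of ventral cord and cholinergic cells, 2 of 5 tested were higher in cord, Slc5a7 and Ache. Slc5a7, the choline transporter of cholinergic neurons, read 6.10, 7.12, 7.84 and 8.16 against 2.88 to 3.79 in DRG. Chat, which makes acetylcholine, was well above background on 2 cord arrays, and Sim1, of ventral interneurons, on 0. Foxp1, a transcription factor of motor neurons and of many other cells, was lower in cord, with differences of -1.34 to DRG and -1.74 to nerve. The cord arrays thus held signal of some cholinergic genes, and whether it came from outside the dorsal quadrant was not tested. Of all 16 sensory neuron markers on the array, 9 were well above background on 0 cord arrays, and their summed signal, as log2, was 9.31 to 10.4 in cord, 15.03 to 15.23 in DRG and 9.31 to 10.1 in nerve.

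Among the 15 genes with the brightest probes in cord were the hemoglobin genes Hba-a1, Hbb-b1 and Hbb, the myelin gene Mbp, the ferritin gene Fth1, the protease inhibitor Cst3, Ppia, the ribosomal protein genes Rpl41, Rpl37a and Rpl35, the respiratory chain gene Cox6a1, Ceacam9 and Hmx1. Brightness also depends on the probe, so the order of genes is not an order of RNA amounts. Only Aldoc and Ndrg2 of the 15 were higher in cord than in both tissues. Aldoc, a glycolytic enzyme of astrocytes, read 16.77, 16.84, 16.91 and 17.06 in cord, 13.39 to 13.65 in DRG and 10.12 to 11.53 in nerve, a difference of 3.39 to the nearer tissue. Ndrg2, another astrocyte gene, read 16.41, 16.48, 16.61 and 16.64 against 13.53 to 14.18 and 12.61 to 13.84. Both stood above all other arrays, with a range over the cord arrays of 0.30 for Aldoc and 0.23 for Ndrg2. Mbp, the gene of the protein whose fragment was injected, read 17.66, 17.80, 17.96 and 17.50 in cord, 17.11 to 17.46 in DRG and 17.15 to 17.76 in nerve, and the arrays of cord and nerve overlapped. Its difference of 0.40 to DRG (adjusted p = 0.0462) was below 2-fold, and it turned to -0.36 when arrays were centred on their median. The difference of Mbp to nerve, 0.33 on this probe, depended on the probe and the scaling. It was 1.00 with the mean of all its probes, -0.55 centred on the median and -0.50 scaled to the 75th percentile. Of the 100 brightest named genes of cord, 64 were also among the 100 brightest of both DRG and nerve and 22 among neither.

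The genes that set cord apart most, by the difference to the nearer of the other tissues, were markers of oligodendrocytes (Klk6, Mog, Olig2, Nkx6-2, Mobp, Ermn), astrocytes (Mlc1, Slc1a2) and neurons (Slc12a5, Gabrb1, Htr2c, Grp), with Wscd1, Itih3 and Usp29. This order is that of the fitted differences, and for 14 of the 15 genes the probe was below background on some DRG or nerve arrays, so that folds of such genes are given as bounds. Klk6, a secreted protease of mature oligodendrocytes, read 12.08, 12.79, 11.80 and 12.84 in cord, 1.41 to 3.01 in DRG and 1.39 to 4.35 in nerve, where it was well above background on 1 and 2 arrays. Cord was at least 322-fold above nerve, the nearer tissue (adjusted p = 8.83e-08). Mog, a surface protein of central myelin, read 11.38, 11.99, 11.45 and 12.11 in cord and 1.34 to 4.32 on the other 8 arrays, of which 1 DRG and 1 nerve array were well above background, and was at least 218-fold above nerve. Olig2, the transcription factor of the oligodendrocyte lineage, read 9.37, 9.90, 9.58 and 9.93 in cord, and was at least 69.1-fold above DRG and at least 57.2-fold above nerve, where 1 and 0 arrays were well above background. The 4 cord arrays of Klk6, Mog and Olig2 all lay above every other array.

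Slc12a5, the neuronal chloride exporter that inhibition by GABA and glycine depends on, read 11.43, 11.08, 11.76 and 10.86 in cord and 1.39 to 5.93 elsewhere, with the highest of these on a DRG array (adjusted p = 2.31e-05 to DRG). Slc1a2, the glutamate transporter of astrocytes, read 10.64, 10.86, 10.75 and 10.66 against 1.74 to 4.88. Mlc1, a membrane protein of astrocyte endfeet, was well above background on all 4 cord arrays and 0 of the other 8, at 9.06, 9.30, 9.70 and 10.08. It was at least 64.4-fold above DRG and at least 51.2-fold above nerve. Htr2c, a serotonin receptor, read 9.53, 9.29, 9.56 and 9.23 in cord, with 1 of the other 8 arrays well above background. It was at least 46.4-fold above DRG (adjusted p = 8.80e-07), and its cord arrays ranged over 0.33. Usp29, which belongs to a family of deubiquitinating enzymes, was well above background on no DRG or nerve array and read 8.78, 8.48, 8.51 and 8.19 in cord.

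**Figure D1:**
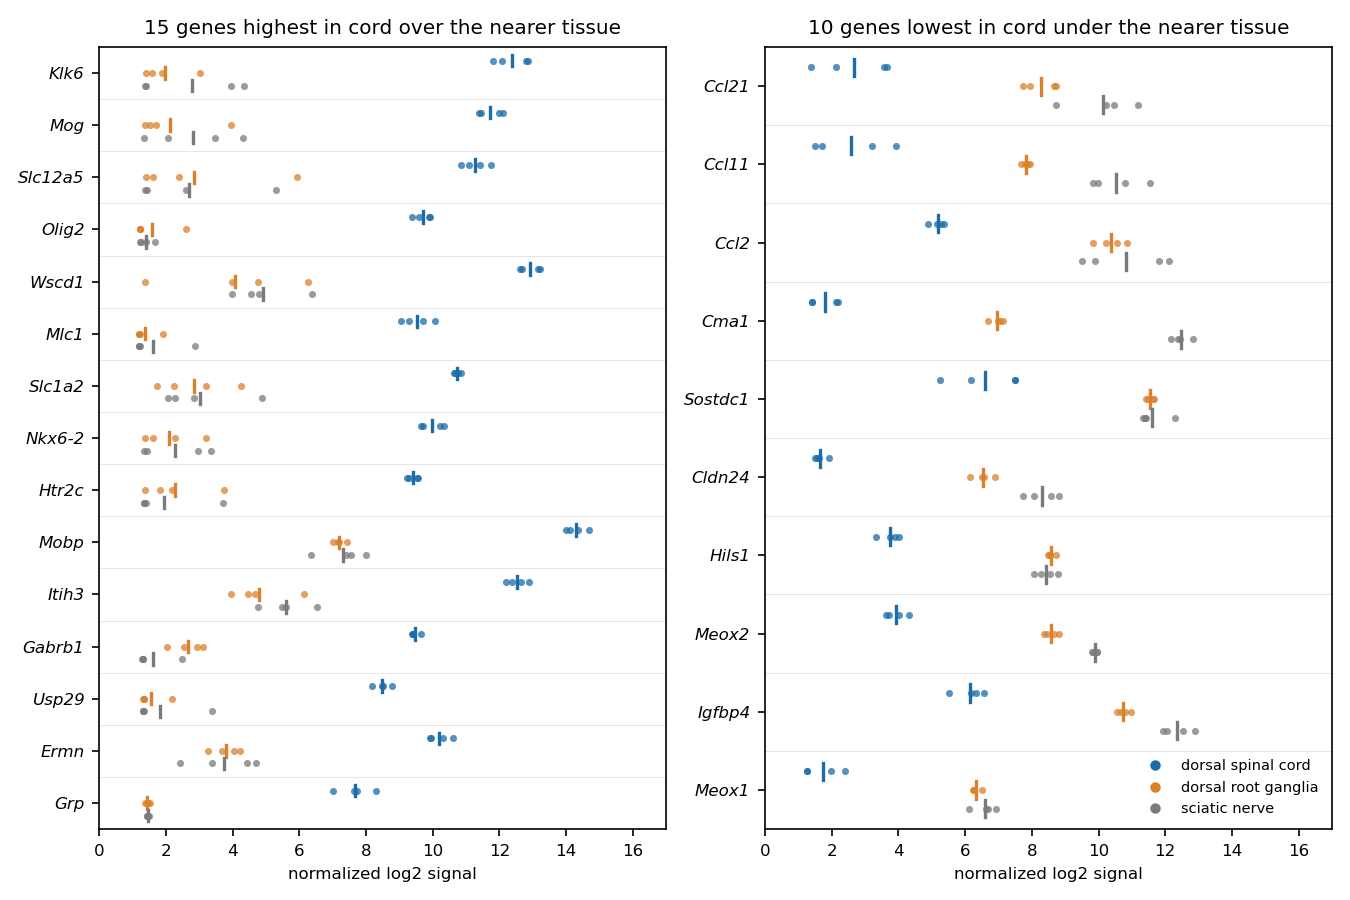
Normalized log2 signal (x axis) on each of the 12 arrays, with the mean of each tissue as a vertical bar, for the 15 genes highest and the 10 genes lowest in cord against the nearer tissue. The genes were chosen so that the 4 cord arrays lie outside the range of the other 8, and Klk6 reads 11.80 to 12.84 in cord and at most 4.35 elsewhere.

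Of 28 oligodendrocyte markers tested, 24 were higher than in both tissues and 0 lower, beside 13.9% and 10.6% of all genes. The median difference of the list was 3.85 to DRG and 3.99 to nerve, and in this and the other list medians, values below background enter as measured. The 4 members without a call were Mbp, Aspa, Ugt8 and Mal. Ugt8, which makes the galactolipids of both kinds of myelin, read 11.71, 12.15, 11.51 and 12.17 in cord, 10.86 to 11.29 in DRG and 10.32 to 11.34 in nerve. Mal, a myelin membrane protein found in Schwann cells too, read 9.24, 9.33, 9.22 and 9.53 against 8.99 to 10.25 and 9.48 to 10.63, so that the cord arrays lay inside the range of the others.

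Of 9 genes of oligodendrocyte precursors tested, 4 were higher in cord (C1ql1, Neu4, Tnr and Bcan) and 2 lower. C1ql1, a secreted synaptic protein, read 5.55, 6.34, 5.97 and 6.93 in cord and at most 2.26 elsewhere, and Neu4, a sialidase, 5.60, 6.08, 5.74 and 6.27 against at most 2.12. Neither was well above background on any of the other 8 arrays. Cspg4 and Pdgfra, which mark precursors in the cord but pericytes and fibroblasts in other tissues, were lower. Pdgfra, a growth factor receptor, read 9.11, 9.20, 8.86 and 9.08 in cord, 10.02 to 10.30 in DRG and 10.86 to 11.37 in nerve (adjusted p = 2.43e-05 and 3.64e-08), and with arrays centred on their median its list had 1 member lower in place of 2. The 7 matrix genes higher in cord, of 8 tested, included Hapln2, a link protein of central nodes of Ranvier, Bcan, Tnr and Ncan. Hapln2 read 12.83, 13.81, 12.63 and 13.47 in cord against 8.38 to 8.62 in DRG and 6.45 to 7.57 in nerve, a 26.3-fold difference to DRG. Bcan, a proteoglycan of the central matrix, read 12.93, 13.51, 13.40 and 13.43 against 9.20 to 9.78 in DRG, but spread from 1.34 to 6.64 over the nerve arrays.

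Of 23 astrocyte genes tested, 22 were higher in cord and 0 lower, with medians of 3.02 to DRG and 3.66 to nerve. Gfap, the intermediate filament of astrocytes, read 9.64, 10.69, 10.10 and 11.70 in cord, 2.88 to 4.26 in DRG and 4.85 to 5.11 in nerve, and was at least 46.7-fold above nerve (adjusted p = 1.82e-07), where 3 arrays were well above background. It was also among the 6 genes with the widest cord range, 2.06, and was lower on the lumbar than on the rostral array of each rat type. Agt, the precursor of angiotensin, read 13.90, 14.10, 13.93 and 13.70 in cord and 7.12 to 9.42 elsewhere. Cldn10, a junction protein, read 8.39, 8.49, 8.85 and 8.85 against 3.44 to 4.70. Only Gpr37l1, a receptor that satellite glia of the DRG express too, was not called, at 12.21, 12.53, 12.29 and 12.38 in cord and 11.60 to 11.70 in DRG, where its difference of 0.69 was below 2-fold. The summed signal of the list, as log2, was 18.1 to 18.4 in cord, 15.4 to 15.8 in DRG and 14.2 to 15.1 in nerve.

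Of 16 microglia markers tested, 1 was higher, 1 lower and 14 neither, with a median of -0.14 to DRG and -1.03 to nerve, and macrophages of nerve and DRG express many of these genes too. Sall1, a transcription factor of microglia that other cells also use, read 5.40, 6.06, 5.20 and 5.97 in cord and was well above background on 0 of the other 8 arrays. Olfml3, a secreted protein, was lower, with a difference of -2.24 to DRG. C1qb, a complement subunit, read 12.55, 12.21, 12.62 and 12.10 against 13.21 to 13.62 in DRG and 14.11 to 14.40 in nerve. Tmem119, a microglial membrane protein, differed from DRG by -0.85 on the probe used but by 1.45 on the probe with the highest mean of a tissue. Of 6 ependymal genes, 3 were higher, among them Foxj1, the regulator of motile cilia, at 5.93, 6.60, 6.31 and 6.88 against 2.43 to 4.19, and with normexp correction 1 was. Of 12 endothelial and barrier genes, 1 was higher and 2 lower, shares near the 13.9% and 10.6% of all genes. Slco1c1, the thyroxine transporter of the blood-brain barrier, read 8.58, 8.46, 8.49 and 8.46 in cord, 6.62 to 6.85 in DRG and 1.91 to 3.99 in nerve. Kdr and Pecam1, of endothelium in general, were lower, Kdr with differences of -1.55 to DRG and -1.55 to nerve.

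Genes of inhibitory transmission were higher in cord for 7 of 10 members tested, with 0 lower and medians of 4.14 to DRG and 4.59 to nerve. Slc32a1, which fills vesicles with GABA and glycine, read 11.68, 11.51, 12.30 and 11.17 in cord, 6.30 to 7.08 in DRG and 7.15 to 7.65 in nerve, a 20.8-fold difference to nerve. Gad1, one of the enzymes that make GABA, read 10.34, 10.06, 10.42 and 9.73 against 6.04 to 6.43 in DRG and 1.55 to 4.42 in nerve. Gad2, the other, read 8.00, 7.72, 8.28 and 7.57 in cord and was well above background on none of the other 8 arrays. Gad2 was thus tested through the cord arrays alone. Cord was at least 20.6-fold above DRG and at least 16.4-fold above nerve. On all of these the Sprague-Dawley lumbar array read highest and the Sprague-Dawley rostral array lowest. The glial glycine transporter Slc6a9 and Gphn, the scaffold of inhibitory synapses, were also higher, as was Slc12a5, above. Gphn had the smallest difference of the 7, 1.29 to DRG. Slc6a11, a GABA transporter, and Abat, which degrades GABA, were not called, nor was Slc6a5 on the probe used.

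Of the excitatory genes, 3 of 4 tested were higher in cord, namely Slc17a6 and the glutamate transporters Slc1a1 and Slc1a6. Slc17a6, the vesicular glutamate transporter of most dorsal horn and sensory neurons, read 11.38, 10.99, 11.19 and 10.85 in cord and 9.83 to 10.11 in DRG, a 2.22-fold difference (adjusted p = 0.00844), and 3.55 to 5.44 in nerve. Its call against DRG was lost with limma on part of the arrays, at an adjusted p of 0.0737 in nude rats, 0.0944 in Sprague-Dawley rats, 0.215 in the control arm and 0.0807 with the rostral cord arrays alone. Slc17a7 and Slc17a8, the other vesicular transporters, were well above background on no array.

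Of 17 GABA and glycine receptor subunits, 8 were higher in cord than in both tissues, 15 higher than in nerve and 0 lower than in both. Gabrb1 read 9.41, 9.42, 9.39 and 9.65 in cord against 2.04 to 3.11 in DRG and 1.30 to 2.48 in nerve. Glra3, a glycine receptor subunit of the superficial dorsal horn, read 6.87, 6.26, 6.59 and 5.98, with 0 of the other 8 arrays well above background, and Gabra4 read 5.37, 5.27, 5.07 and 5.01, also with 0. Of 21 glutamate receptor genes, 13 were higher and 0 lower, with a median of 1.70 to DRG and 2.77 to nerve. All 4 AMPA receptor subunits were among the 13. Gria2, the subunit that sets calcium permeability, read 7.77, 7.56, 7.82 and 7.44 in cord, 3.36 to 4.10 in DRG and 1.30 to 2.22 in nerve. Grin2a, an NMDA receptor subunit, read 6.82, 6.53, 6.66 and 6.17 and was at least 7.94-fold above DRG and at least 6.44-fold above nerve. Grm3, a metabotropic receptor of astrocytes and neurons, read 6.91, 6.97, 7.08 and 7.23 and was at least 11.5-fold above DRG. With normexp correction the counts of higher members fell to 2 of the GABA and glycine and 8 of the glutamate receptors.

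All 21 neuropeptide genes on the list were well above background on all 4 cord arrays. Of these, 11 were higher in cord than in both tissues, 20 were higher than in nerve, and 5 were lower than in DRG. Penk, Pdyn and Pnoc encode opioid and related peptides. Penk, the precursor of the enkephalins, read 10.25, 9.59, 10.12 and 9.33 in cord, 2.30 to 3.94 in DRG and 3.22 to 4.76 in nerve, at least 50.9-fold above nerve (adjusted p = 9.60e-08), where 2 arrays were well above background. Pdyn, the precursor of the dynorphins, whose promoter is shown above, read 8.26, 7.55, 8.23 and 7.49 in cord and was well above background on none of the other 8 arrays. It was at least 20.5-fold above DRG and at least 16.3-fold above nerve. Pnoc, the precursor of nociceptin, read 10.03, 9.97, 9.83 and 9.34 against 5.49 to 5.95 in DRG and 2.12 to 2.82 in nerve.

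Grp, the itch-related gastrin-releasing peptide, read 8.30, 7.65, 7.74 and 7.00 in cord and 1.37 to 1.53 elsewhere, well above background on none of those arrays. Nts, which encodes neurotensin, read 8.40, 7.85, 8.35 and 7.76 in cord and was at least 21.5-fold above DRG. Both Grp and Nts were tested through the cord arrays alone. Tac3, the precursor of neurokinin B, read 10.48, 10.14, 10.51 and 10.06 against 5.40 to 7.17. Among peptides of excitatory interneurons, Cck, the precursor of cholecystokinin, read 12.35, 11.85, 12.09 and 11.51 in cord, 7.64 to 7.84 in DRG and 8.24 to 9.29 in nerve, an 8.67-fold difference to nerve. Sst, the precursor of somatostatin, which sensory neurons also make, read 12.33, 12.00, 12.55 and 12.35 in cord, 8.38 to 9.88 in DRG and 1.35 to 4.41 in nerve. Npff, Nmu and Trh completed the 11, and Trh, like Pdyn, Grp and Nts, was well above background on no DRG or nerve array.

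The 5 peptide genes below DRG were Calca, Calcb, Nmb, Crh and Tac1. Calca, the precursor of calcitonin gene-related peptide of nociceptors, read 4.87, 7.23, 8.84 and 8.76 in cord and 14.07 to 14.38 in DRG, a difference of -6.76 (adjusted p = 1.05e-05). Its cord arrays spread over 3.97, with the nude lumbar array lowest and both Sprague-Dawley arrays highest, and Calcb did the same at 5.30, 7.03, 8.16 and 8.29. Slc5a7, above, was lowest and highest on the same arrays. Nmb read 8.07, 7.43, 7.99 and 7.02 in cord, 11.34 to 11.80 in DRG and 6.72 to 8.58 in nerve. Tac1, the precursor of substance P, read 12.18, 11.70, 12.29 and 11.11 in cord and 13.28 to 13.70 in DRG, with all cord arrays below all DRG arrays. Its difference of -1.71 (adjusted p = 0.0395) lost its call in 7 of the 12 fits that left out 1 array, at -1.47 to -1.82, and in the fit with rat type and arm as a block. Npy read 12.71, 12.13, 11.86 and 12.12 in cord and 12.16 to 13.41 in DRG, and Gal 10.06, 10.61, 10.04 and 11.03 and 9.50 to 11.71, with overlapping arrays in both cases.

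**Figure D2:**
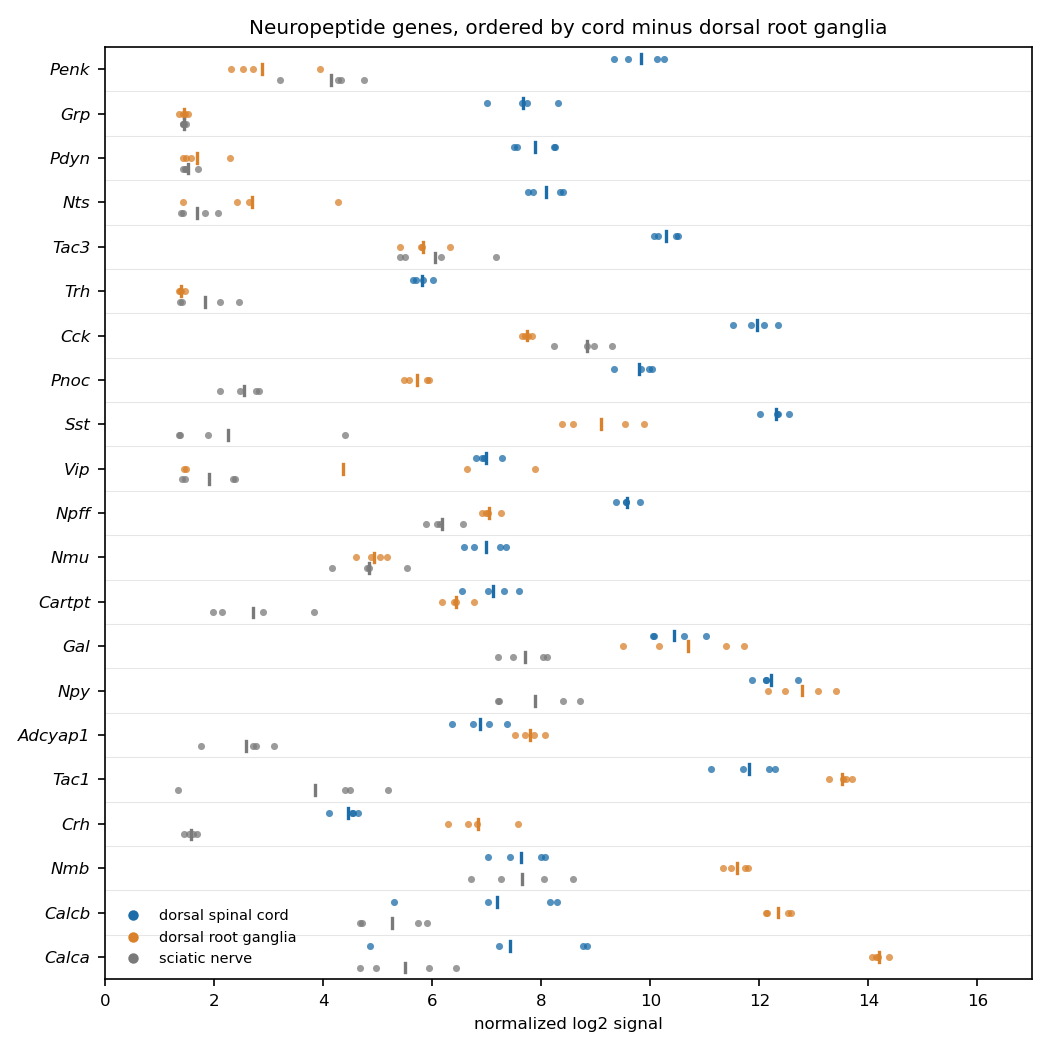
Normalized log2 signal (x axis) of 21 neuropeptide genes on each of the 12 arrays, with tissue means as vertical bars, ordered by the difference between cord and DRG. Penk heads the order at 9.33 to 10.25 in cord and 2.30 to 3.94 in DRG, and Calca closes it at 4.87 to 8.84 in cord and 14.07 to 14.38 in DRG.

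Of 20 peptide receptors tested, 13 were higher in cord and 0 lower. Ntsr2, a neurotensin receptor found on astrocytes, read 12.10, 12.37, 12.17 and 12.15 in cord and 6.49 to 7.05 elsewhere, a 39.8-fold difference to DRG. Sstr2, a somatostatin receptor of dorsal horn neurons, read 7.97, 7.76, 8.00 and 7.61 and was at least 17.3-fold above DRG and at least 15.8-fold above nerve. Tacr1, the substance P receptor, read 5.55, 5.09, 5.64 and 4.74 in cord, and Tacr3, the neurokinin B receptor, 6.25, 6.01, 6.22 and 5.63, both with 0 of the other 8 arrays well above background. Cckbr, a cholecystokinin receptor, read 5.48, 5.53, 5.75 and 5.28, also with 0. Grpr, the receptor of Grp, read 3.35, 3.60, 3.56 and 3.09 in cord and was well above background on 3 of the 4 arrays. Oprk1, the dynorphin receptor, read 4.97, 4.71, 5.23 and 4.43 against 2.59 to 3.92 in DRG, and its call was lost without 1 array for 7 of the 12 arrays, and 1 DRG and 1 nerve array were well above background. Oprm1, the μ opioid receptor, was well above background on 2 arrays of each tissue and was not tested. With normexp correction 5 of the receptors were higher.

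Of 12 transcription factors of the dorsal horn tested, 4 were higher in cord (Lbx1, Lhx1, Lhx5 and Pax8) and 0 lower, with medians of -0.23 to DRG and 0.86 to nerve. Lbx1, which specifies dorsal horn neurons and whose promoter is shown above, read 6.09, 5.72, 6.07 and 5.16 in cord and was at least 4.71-fold above DRG and at least 3.74-fold above nerve. Lhx1, of inhibitory neurons, read 5.65, 5.41, 5.40 and 5.19 in cord and at most 1.35 elsewhere, and Pax8, of the same lineage, 6.06, 5.76, 5.70 and 5.51 against 2.21 to 3.96. The 4 cord arrays of Lbx1, Lhx1 and Pax8 lay above all others, and with normexp correction 1 of the 12 factors was higher. Drgx, a factor of sensory neurons and of their targets in the dorsal horn, read 7.81, 7.19, 7.37 and 6.92 in cord, 8.07 to 8.43 in DRG and 2.42 to 3.20 in nerve. Zic1 had the same order, at 7.20, 6.60, 7.13 and 5.61, 7.15 to 7.45 and 1.47 to 1.87. Of these, the difference between cord and DRG was -0.85 (adjusted p = 0.0059) for Drgx and -0.66 (adjusted p = 0.0621) for Zic1.

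Hox genes, which record position along the body axis, were higher in cord than in both tissues for 6 of 10 tested of groups 1 to 9. Hoxb8 read 7.29, 6.66, 7.32 and 6.11 in cord and 2.71 to 4.52 elsewhere, at least 7.94-fold above nerve, where no array was well above background. Hoxa7 read 10.64, 10.91, 10.59 and 10.33, and Hoxb7 10.96, 10.57, 10.94 and 10.60, both above every DRG and nerve array. Of groups 10 to 13, 2 were tested and 0 called. Hoxd10 read 8.44 and 9.48 on the lumbar arrays and 1.71 and 3.23 on the rostral arrays, nude rats first. Among the cord arrays it was well above background on the lumbar ones only, and it was so on 3 DRG arrays. Hoxa11 read 5.44 and 7.38 on the lumbar and 1.48 and 1.39 on the rostral arrays. On both genes the lumbar arrays stood apart from the rostral arrays in each rat type. Hoxd9 read 9.86 and 10.38 on the lumbar and 8.28 and 8.69 on the rostral arrays, the widest range of any gene called higher in cord, and with the rostral cord arrays alone its difference to DRG was 0.76 and not called.

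**Figure D3:**
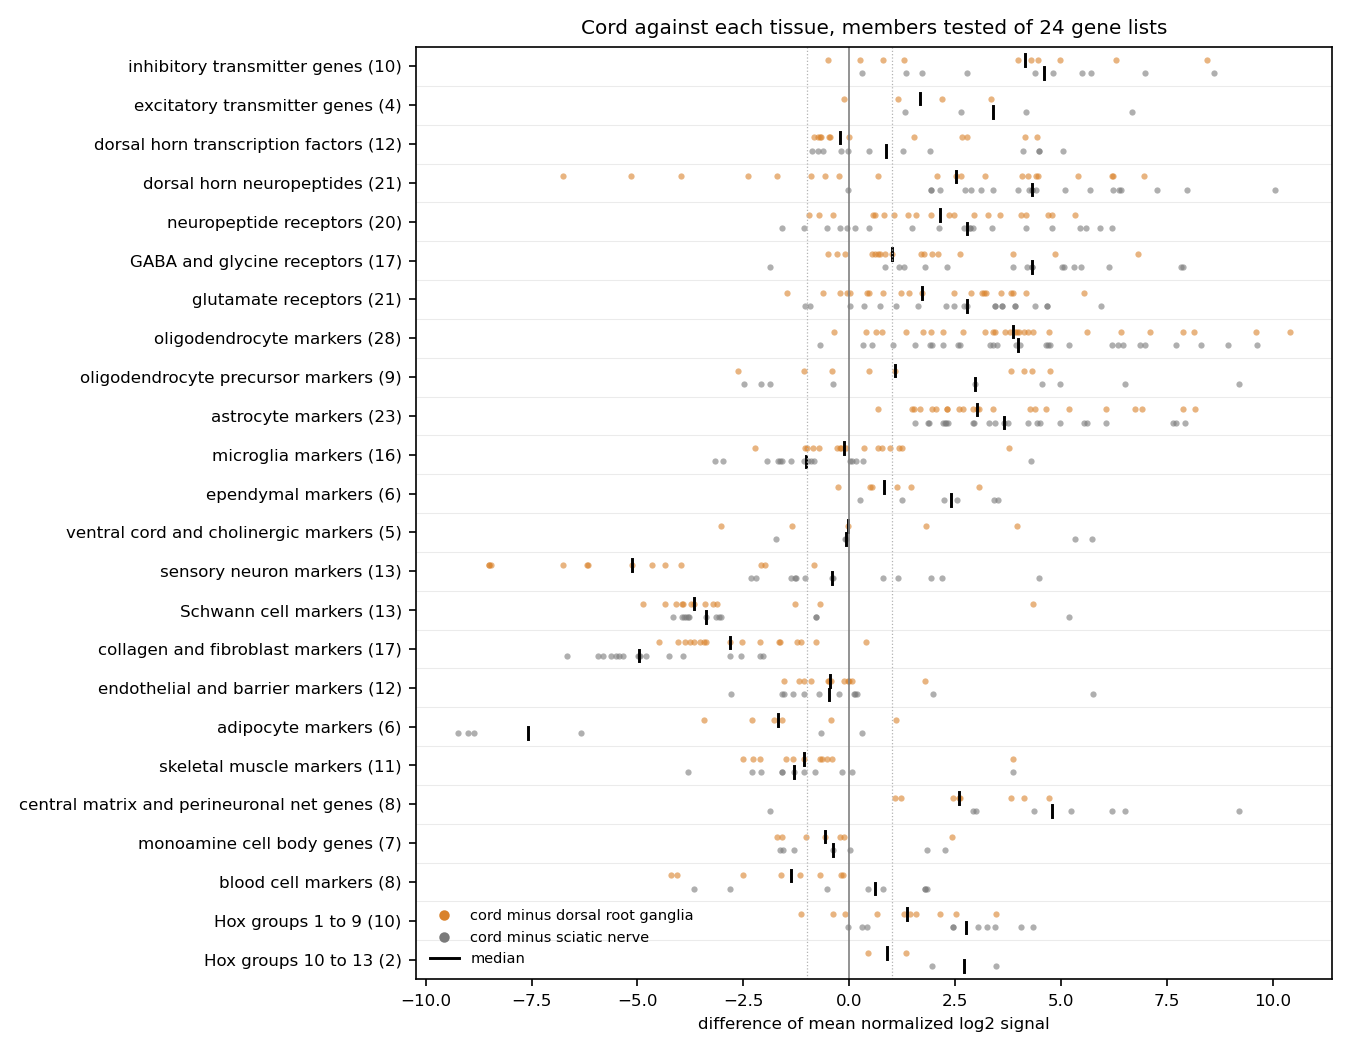
Difference of the mean normalized log2 signal between cord and DRG (orange) and between cord and nerve (grey) for each tested member of 24 gene lists, with the list median as a black bar and dotted lines at 2-fold. Oligodendrocyte and astrocyte markers lie almost wholly to the right, at medians of 3.85 and 3.02 to DRG, and Schwann cell, collagen and fibroblast markers to the left.

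The 10 genes lowest in cord against the nearer tissue were Ccl21, Ccl11, Ccl2, Cma1, Sostdc1, Cldn24, Hils1, Meox2, Igfbp4 and Meox1. The first 3 are chemokines. Ccl11 read 3.92, 1.72, 3.22 and 1.49 in cord, 7.66 to 7.95 in DRG and 9.83 to 11.53 in nerve, with 1 cord array well above background, so that DRG was at least 22.4-fold above cord (adjusted p = 4.61e-06). Ccl2 read 5.29, 4.88, 5.38 and 5.17, with all 4 cord arrays well above background, against 9.52 to 12.13 elsewhere. Cma1, the chymase of mast cells, was well above background on 0 cord arrays and read 6.69 to 7.13 in DRG and 12.16 to 12.84 in nerve, so that DRG was at least 14.5-fold and nerve at least 654-fold above cord. Meox1 and Meox2 are transcription factors of mesoderm. Meox1 was well above background on 0 cord arrays too, and DRG was at least 9.30-fold above cord. Igfbp4, a secreted binding protein of insulin-like growth factors, read 6.57, 6.16, 6.32 and 5.53 in cord against 10.55 to 12.88, a 24.3-fold difference to DRG. Cldn24, a claudin, was at least 36.6-fold higher in nerve, and Hils1, a histone-like gene, was at least 25.5-fold higher in nerve, with 3 cord arrays well above background.

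Collagen and fibroblast markers were lower in cord for 15 of 17 tested and higher for 0, with medians of -2.83 to DRG and -4.97 to nerve. Col1a1, a chain of type I collagen, read 10.24, 10.10, 9.79 and 9.82 in cord, 13.53 to 14.30 in DRG and 15.73 to 16.16 in nerve, which put DRG 14.7-fold and nerve 61.4-fold above cord. Cldn1, a junction protein of the perineurium, read 6.02, 5.07, 6.27 and 4.93 against 9.60 to 10.43 and 10.84 to 11.64. On both genes every nerve array lay above every DRG array and every DRG array above every cord array. Of 6 adipocyte markers, 3 were lower in cord and 0 higher. Fabp4 and Retn were well above background on 0 cord arrays, and nerve was at least 240-fold and at least 199-fold above cord. The call of Retn against DRG was lost without 1 array for 5 arrays, and 2 DRG arrays were well above background. Of 8 blood cell markers, 0 were higher in cord and 2 lower, Cd3g, of T cells, at 3.45, 2.01, 3.78 and 2.82 in cord and 5.10 to 6.81 elsewhere, and Ptprc. Hba-a1, of red blood cells, read 18.13, 17.96, 17.80 and 18.13 in cord, 18.03 to 18.35 in DRG and 14.66 to 17.61 in nerve.

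Sensory neuron markers were lower in cord than in DRG for 12 of 13 tested, and than in both tissues for 6, or for 1 with normexp correction. Avil, an actin-binding protein of sensory neurons, was well above background on 0 cord arrays, and DRG was at least 234-fold above cord (adjusted p = 2.87e-08). Scn10a, Scn11a, Trpv1, Trpm8 and Isl1 were also at 0 of 4 cord arrays. P2rx3, an ATP receptor of nociceptors, read 5.14, 5.07, 4.81 and 5.14 in cord, 11.03 to 11.44 in DRG and 5.37 to 6.73 in nerve. Against nerve the difference of P2rx3 was -1.06, and its call was lost in 2 of the 12 fits without 1 array, at -0.98 and -0.85. The call of Trpm8, which 1 nerve array measured above background, was lost in 3. Of 7 monoamine genes, Ddc, which makes dopamine and serotonin from their precursors, was higher in cord, at 7.38, 7.48, 6.99 and 7.63 against 4.42 to 6.13, and Slc6a2 and Maob were lower, so that the share higher was near that of all genes. Maob, at -1.02 to DRG, fell below 2-fold without 1 array for 4 of the 12, at -0.99 to -0.85.

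Skeletal muscle genes were lower in cord for 4 of 11 tested, and higher for 1, Tnnc2. Tnnc2, a troponin of fast muscle, read 11.33, 11.32, 11.15 and 11.41 in cord and 5.59 to 10.22 elsewhere. Tnni2 read 8.05, 6.72, 6.51 and 6.68, Actn3 6.69, 5.20, 4.20 and 4.72 and Ckm 5.57, 3.78, 2.92 and 3.23, each highest on the nude lumbar array. Their calls were lost in 6 to 8 of the fits without 1 array, where the difference to DRG was as small as -1.11 for Tnni2 and -1.95 for Actn3. Ckm was well above background on 1 cord array. The count of 4 became 1 with slide as a block, 1 with the lumbar cord arrays alone and 0 in nude rats alone. The summed signal of the 13 muscle markers on the array, as log2, was 11.5 to 11.9 in cord, 10.0 to 11.4 in DRG and 10.2 to 12.8 in nerve. In cord, Tnnc2 alone made up most of this sum, so it does not stand for the list.

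Of 13 Schwann cell markers tested, 10 were lower in cord than in both tissues and 1 was higher, with medians of -3.67 to DRG and -3.37 to nerve. None was at 0 of 4 cord arrays. Prx, which encodes periaxin of peripheral myelin, read 7.90 and 8.08 on the lumbar and 5.32 and 4.98 on the rostral arrays, nude rats first, against 9.39 to 11.44 in DRG and nerve. Egr2, a transcription factor of myelinating Schwann cells, read 5.08 and 5.41 on the lumbar and 3.75 and 2.98 on the rostral arrays, against 7.77 to 8.59. In each gene the lumbar arrays lay between the rostral arrays and the peripheral tissues in both rat types.

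Of 10628 tested genes well above background on at least 2 cord arrays, 32 were at least 2-fold higher on the lumbar array in both rat types and 14 at least 2-fold higher on the rostral array. Of the 32 genes, 30 were among those lower in cord than in both tissues, beside 939 of all 10628. Of the 32, 8 were Schwann cell markers of 13 measured, among them Prx, Pmp22, Cldn19, Dhh, Gldn, Egr2 and Drp2. The median lumbar minus rostral difference of the Schwann list was 1.56 in nude and 2.10 in Sprague-Dawley rats, beside -0.03 in both for all genes. Of 28 oligodendrocyte genes, 25 were lower on the lumbar array in both rat types, with list medians of -0.57 and -0.57. Neuropeptide genes were higher on the lumbar array in both for 15 of 21, with medians of 0.34 and 0.45. Of all genes, 30.3% were higher on the lumbar array and 38.4% on the rostral array in both rat types. These differences were not tested, and the level of a piece cannot be told apart from its arm, since the lumbar pieces were the treated and the rostral pieces the control samples.

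**Figure D4:**
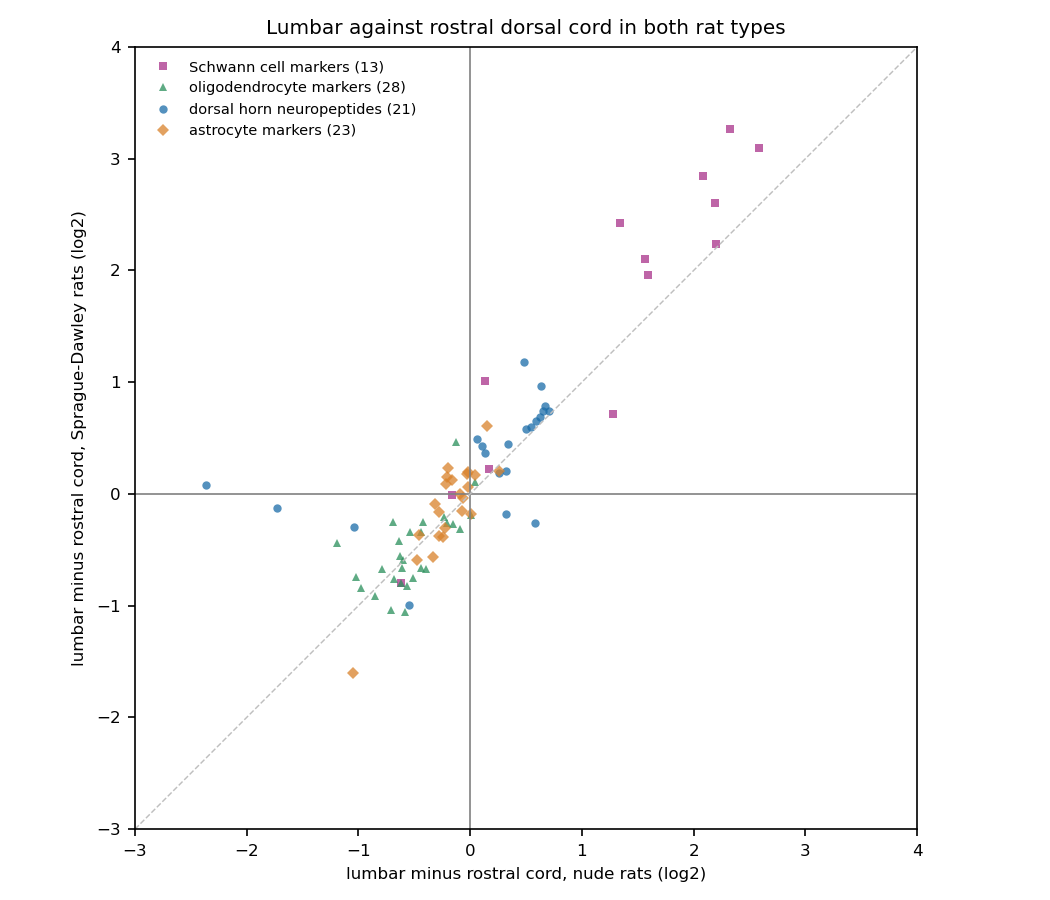
Difference of normalized log2 signal between the lumbar and the rostral dorsal cord in nude rats (x axis) and Sprague-Dawley rats (y axis), 1 point per member of 4 gene lists that was well above background on at least 2 cord arrays, with equality as a dashed line. Schwann cell markers such as Prx, at 2.58 in nude rats, lie at the upper right, and 25 of 28 oligodendrocyte markers lie at the lower left.

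The range over the 4 arrays had a median of 0.37 for all genes tested, 0.48 for genes higher and 0.55 for genes lower in cord than in both tissues, and 673 genes, 133 of them higher, had a range of at least 1. Besides Hoxd9, Gfap and Slc5a7, the widest ranges among the higher genes were those of Doc2g, Egr4 and Spag5. Spag5, a protein of the mitotic spindle, read 8.72 and 8.53 on the lumbar and 9.88 and 10.42 on the rostral arrays. Doc2g, at 3.03, 4.22, 4.11 and 5.09, and Egr4, a transcription factor of active neurons, at 4.12, 3.69, 4.35 and 2.36, were well above background on 3 of 4 cord arrays. Between nude and Sprague-Dawley cord arrays, limma called 0 of 20706 probes (502 at an unadjusted p below 0.05). The difference of cord to the other tissues depended on rat type for 0 (586 at an unadjusted p below 0.05). Both unadjusted counts are below the 1 in 20 that chance alone gives. Each rat type had 1 lumbar and 1 rostral cord array, so level and arm widen the spread. The 0 calls thus do not show that the rat types are alike.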

How the data were processed

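RNA of 4 pools each of dorsal cord, DRG and sciatic nerve was hybridised to Agilent SurePrint G3 Rat GE 8x60K arrays, 1 colour (Cy3). The authors extracted the spot intensities, background-subtracted and detrended within an array, and a flag for spots well above background, with Feature Extraction (10.5 per the labels, 10.7.3.1 per the file headers). The deposited value table held log2 values which the authors normalized in GeneSpring GX. The methods name normalization to the median, but the sorted columns differed by at most 0.00153, so the values were quantile normalized. Of 30367 probes without controls, 18006 were paired with 1 of 15159 RefSeq gene symbols. With several probes (2607 genes), the one with the highest mean over the 12 arrays stood for the gene. Spots with outlier flags were left out of the alternatives that start from the scanner signal, and no spot was saturated.

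The log2 values were fitted with limma 3.58.1 (R 4.3.3), with tissue as the only term and 2-sided tests. Summaries were computed in Python 3.11.15 with numpy 2.4.6 and pandas 2.3.3, and figures drawn with matplotlib 3.10.9. The fit was tested on simulated data. "At least" folds set the brighter mean against the mean over the arrays of the dimmer tissue of the lowest signal well above background on each array, or the probe's own signal where that was higher. The number of arrays limits the precision. Named were Slc6a5, the 15 genes highest and 10 lowest in cord against the nearer tissue with no overlap of arrays, the 15 brightest, the 6 higher genes with the largest cord range, and, of each of 24 gene lists, up to 6 members with the largest difference plus contrasts the text needs. Some genes of these lists are counted and not reported here by name. The comparison, the lists and this rule were chosen with earlier results of these data known. Alternatives changed the background correction, scaling, probe, filter, threshold, test, block and arrays.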

Additional observations from a re-analysis of the deposited data

Results flagged for a closer look

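Among 314 groups of 4 arrays of a tissue, for the genes named, 9 (2.87%) had 1 array far from the other 3, where chance gives about 1 in 20. In cord, Gabrb1 read 9.65 on the Sprague-Dawley rostral array and 9.39 to 9.42 on the others. Rsph1, of motile cilia, read 6.10 on the Sprague-Dawley lumbar array and 5.72 to 5.77 on the others. Runx1, a transcription factor of sensory neurons and blood cells, read 6.42 on the same array and 6.16 to 6.19 on the others. Tnni2 read 8.05 on the nude lumbar array and 6.51 to 6.72 on the others. In nerve, Sostdc1 read 12.29 on the nude right nerve and 11.34 to 11.43 on the others, Slc32a1 7.65 on the nude left nerve and 7.15 to 7.19 on the others, and Ntsr2 6.97 on the Sprague-Dawley right nerve and 6.49 on the others. In DRG, Drgx read 8.43 and Gria4 7.28 on the Sprague-Dawley left ganglia, against 8.07 to 8.09 and 6.82 to 6.87 on the others.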

How the results depend on the processing

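The counts of genes higher and lower in cord stayed within 1.5 times under all but 4 alternatives. With normexp background correction (offset 50, run on the median signal of a spot) they were 1115 and 912 against the mean of both tissues, 859 and 762 against DRG, 1392 and 1215 against nerve, and 759 and 557 against each of both; the cause was not tested. With only probes well above background on all 12 arrays, which removes genes that are dim in 1 tissue, the higher counts were 943, 825, 1159 and 620. With no fold threshold the counts were 4054 and 3602, 3814 and 3047, 3838 and 3645, and 2918 and 2363, and at 4-fold 1009 and 727, 735 and 597, 1233 and 978, and 615 and 431. Leaving out each array gave 2094 to 2255 and 1641 to 1776 against the mean, 1828 to 2056 and 1465 to 1546 against DRG, 2267 to 2511 and 1950 to 2123 against nerve, and 1435 to 1574 and 1130 to 1179 against each. The methods' t-test at p below 0.05 and 2-fold gave 1527 and 1159 genes against each, and 1506 and 1149 after Benjamini-Hochberg adjustment. The median difference of all genes tested was 0.17 to DRG and -0.07 to nerve with centring on the median, and -0.01 and -0.02 with scaling to the 75th percentile. The labels give no replicate numbers to pair arrays by, and the fit matched on rat type and arm, as a block, gave 1530 and 1171 genes against each. Reversals were sought only among values with an adjusted p below 0.05 in the main fit. Reversed were Mbp against DRG (-0.36 centred on the median, -0.54 scaled to the 75th percentile), Cst3 against nerve (-0.082 centred on the median, -0.030 scaled to the 75th percentile) and, by the probe, Tmem119 against DRG (0.30 with the mean of probes, 1.45 with the probe of the highest tissue mean). Values above that p could change sign too. Centred on the median, Mbp against nerve went from 0.33 to -0.55. Scaled to the 75th percentile, Fth1 against DRG went from 0.40 to -0.57. Of the values of named genes under alternatives, 8293 neither reversed in this sense nor crossed an adjusted p of 0.05. A further 211 moved above it and 38 below it, with no fold threshold. Values above it in the main fit were counted without regard to direction. Against both tissues at 2-fold, 61 of 89 named higher genes and 29 of 43 named lower ones passed with normexp correction, and in nude rats alone 79 of 87 and 34 of 42 tested. With only probes well above background on all 12 arrays, 18 of the 89 and 27 of the 43 could be tested, and all of these passed. Leaving out 1 array ended a call of 1 of 89 named higher genes (Oprk1) and 7 of 43 named lower ones (Trpm8, P2rx3, Retn, Actn3, Ckm, Tnni2, Maob). The fits with the cord arrays of 1 level, and the probe with the highest tissue mean, were chosen after seeing the data. Signal over background limits dim genes, whose fitted differences rest on values below background and are no bounds.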
